A study of Mus musculus with 11 samples.

Results

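The epididymis matures sperm along its length, and its epithelium secretes a different set of proteins in each region. Here 9 genes of the proximal secretory programme were followed by symbol in the reads of sorted CX3CR1+ mononuclear phagocytes: the ribonuclease A family members Rnase10 and Rnase9, the metalloprotease-like surface proteins Adam7 and Adam28, the serine protease Ovch2, the cysteine-rich secretory proteins Crisp1 and Crisp4, the chaperone clusterin (Clu) and the receptor tyrosine kinase Ros1. All 9 were found among the 37583 genes of the deposited expression table, and all 9 passed the filter on low counts. Rnase9 and Crisp4, for example, passed it through the region where they were high, so being tested was not independent of that difference. The same filter held for all genes. The genes were taken by symbol, with no threshold on a measured value, but they were chosen with earlier results of these data known.

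In mice, the initial segment (IS), the first stretch of the duct, needs signals carried in testicular fluid. One of them, NELL2 from germ cells, acts on ROS1 at the surface of the epithelium, and the differentiated epithelium then secretes the protease OVCH2, which is needed for the processing of the sperm surface protein ADAM3. The other products reach the duct lumen and meet passing sperm: CRISP1 and ADAM7 bind to them, and clusterin is an extracellular chaperone. These genes are best known as products of the epididymal epithelium, while the cells sequenced here were sorted as phagocytes.

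The study asked how the transcriptome of CX3CR1+ mononuclear phagocytes depends on their place in the epididymis. EGFP-positive cells of 12-week-old CX3CR1 EGFP +/- transgenic mice went through double cell sorting from 3 regions, with 4 libraries from the IS, 3 from caput/corpus and 4 from the cauda. Cells of 4 epididymides were pooled for each library. RNA was sequenced after amplification with a SMARTer kit. In all 3 groups the mice carried the same EGFP allele, in which the Cx3cr1 gene drives EGFP, the marker of the sort. No library of unsorted tissue or of EGFP-negative cells was part of the data analysed here. The labels do not say which mice contributed to which library, so p-values measure only the spread between these samples, which may be technical. Library titles fall into the series Maj3, with 5 libraries, and Maj4, with 6, and each series holds all 3 regions.

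The libraries held 16873180 to 31737132 reads on genes. Cauda 1 stood apart, with 13434 genes covered by at least 1 read, against 17053 to 18837 in the other 10. Cx3cr1, the gene that drives the sort marker, averaged 212 RPKM in IS, 112 RPKM in caput/corpus and 83.6 RPKM in cauda libraries. All 10 phagocyte markers had reads in every library. These reads do not measure the purity of the sort, which was not tested. The deposited count files and the columns of the expression table named the same library for 8 of 11 samples and conflicted for IS 2, caput/corpus 1 and cauda 1. The count file under caput/corpus 1 equalled the column named IS 2, and the file under cauda 1 equalled the column named caput/corpus 1. The file under IS 2 equalled no column, and the column named cauda 1 equalled no count file. The column names were followed, so the values printed for IS 2 and caput/corpus 1 are those filed one region further along the duct among the count files. With the count files taken as filed, edgeR called 0 of the 9 genes in each comparison (0, 6 and 6 at an unadjusted p under 0.05 for IS against caput/corpus, IS against cauda and caput/corpus against cauda). Over all genes it then called 0, 4 and 0 in the same order (1166, 3098 and 992 at an unadjusted p under 0.05). Every result below rests on that choice. Without the 3 conflicting libraries edgeR called 5 of the 9 genes for IS against caput/corpus, 7 for IS against cauda and 4 for caput/corpus against cauda, while over all genes it called 954, 2409 and 52, against 571, 2488 and 93 with all libraries.

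Read levels of the 9 genes ran along the duct in most cases from high in the IS to near or at 0 in the cauda. Together the 9 genes took 0.0426% to 0.119% of the reads on genes in IS libraries, 0.0251% to 0.0357% in caput/corpus libraries and 0.00126% to 0.0041% in cauda libraries, so the 3 ranges did not overlap. The upper end in the IS was IS 2, where 13909 of 32267 such reads were on Clu, and the other IS libraries had at most 0.052%. Set against caput/corpus, 3 of 9 genes in the IS were called by edgeR at an adjusted p under 0.05 (Rnase10, Adam28 and Ovch2), each higher in the IS. Of all 15116 genes tested, 3.78% were called in that comparison, 0.794% as higher in the IS and 2.98% as higher in caput/corpus. Between IS and cauda, 7 of 9 were called, each higher in the IS (Rnase10, Adam7, Adam28, Ovch2, Crisp4, Clu and Ros1), while 16.5% of all genes were called, 7.40% as higher in the IS and 9.06% as higher in the cauda. Between caput/corpus and cauda, 3 of 9 were called, each higher in caput/corpus (Rnase10, Adam7 and Ovch2), against 0.615% of all genes called, 0.582% as higher in caput/corpus and 0.0331% as higher in the cauda. These comparisons share libraries and are not independent of each other. Without cauda 1, the library with the fewest genes detected, 5, 7 and 6 of the 9 genes were called in the 3 comparisons in that order, and over all genes 1353, 3124 and 205 were called. Within the 5 Maj3 libraries, which hold 1 caput/corpus library, the counts were 0, 2 and 1 of the 9, and 0, 30 and 5 of all genes. A lone library is there assumed to vary like the others, and the log2 fold change of IS over caput/corpus was 4.04 for Rnase10, 4.91 for Adam28 and 4.72 for Ovch2. Within the 6 Maj4 libraries 5, 7 and 3 of the 9 were called, and 457, 1144 and 28 of all genes.

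Libraries of the IS and of caput/corpus failed to overlap for 6 of 9 genes, 5 of them higher in the IS and 1, Rnase9, higher in caput/corpus. Over all genes tested, 6.73% lay wholly higher in IS and 7.68% wholly higher in caput/corpus libraries. Between IS and cauda the groups were separate for 7 of 9 genes, all higher in the IS, against 10.5% of all genes higher in the IS and 8.13% higher in the cauda. Between caput/corpus and cauda they were separate for 6 of 9, all higher in caput/corpus, against 6.59% of all genes higher in caput/corpus and 3.05% higher in the cauda. The median log2 fold change of the 9 genes was 1.40 for IS over caput/corpus, 8.53 for IS over cauda and 6.46 for caput/corpus over cauda. With genes of 0 to 3 reads in a region set at their read ratio or lower bound, the medians were 1.40, 6.27 and 5.28. The median of all genes tested was 0.02, 0.05 and 0.02.

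**Figure D1:**
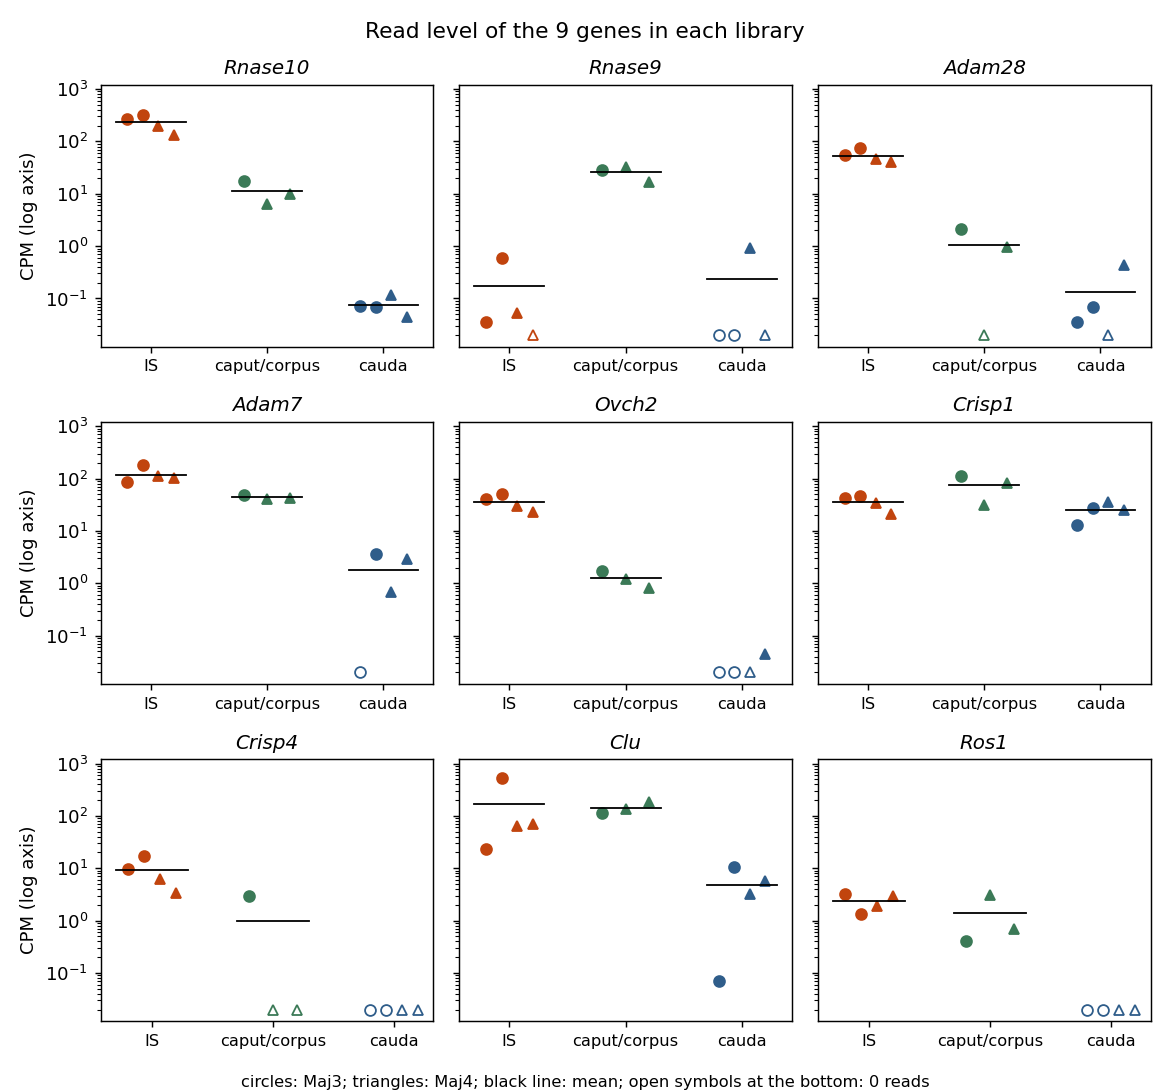
Read level in CPM (log axis) of the 9 genes in each of the 11 libraries by region, with IS left, caput/corpus in the middle and cauda right; circles are Maj3 and triangles Maj4 libraries, the black line is the mean, and open symbols at the bottom mark 0 reads. Rnase10 falls by steps along the duct, Rnase9 has its highest values in caput/corpus, Crisp1 overlaps between IS and cauda, and Crisp4 and Ros1 have 0 reads in all 4 cauda libraries.

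Rnase10 and Rnase9 lie near each other on mouse chromosome 14 and had their highest reads in different regions, Rnase10 in the IS and Rnase9 in caput/corpus. Both encode secreted proteins of the ribonuclease A family that are found in the epididymis, and mouse sperm need RNASE10 to pass from the uterus into the oviduct. Their upstream sequences are shown because these neighbours had their highest reads in different regions. Each line gives 250 bases 5' of the annotated start (RefSeq, GRCm38.p6), on the gene's own strand, at chr14:51007501-51007750 (plus strand, the first of the starts listed) for Rnase10 and chr14:51041868-51042117 (minus strand) for Rnase9. Capitals mark AGAACA or its reverse complement TGTTCT, an androgen receptor half-site, and AGGAAG or its reverse complement CTTCCT, a core of PEA3-type ETS factors.
Rnase10: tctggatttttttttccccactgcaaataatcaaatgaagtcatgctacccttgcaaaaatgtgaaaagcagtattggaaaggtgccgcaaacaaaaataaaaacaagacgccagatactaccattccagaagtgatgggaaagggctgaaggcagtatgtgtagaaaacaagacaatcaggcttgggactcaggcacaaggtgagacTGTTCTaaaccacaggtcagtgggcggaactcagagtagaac
Rnase9: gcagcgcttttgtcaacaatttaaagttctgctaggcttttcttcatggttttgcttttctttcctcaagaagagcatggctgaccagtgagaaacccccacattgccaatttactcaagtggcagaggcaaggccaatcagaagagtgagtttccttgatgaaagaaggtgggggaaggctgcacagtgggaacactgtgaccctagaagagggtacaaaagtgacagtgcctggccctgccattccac
The Rnase10 window held TGTTCT, while the letters of neither motif were found in the Rnase9 window. Of 32851 mouse promoters of this length, 16.1% held the first motif on either strand and 29.5% the second, so a match is common and marks letters only.

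Rnase10 (ENSMUSG00000021872) had 267, 322, 196 and 136 CPM (reads scaled to a common library size, with sizes adjusted by edgeR's TMM method) in the 4 IS libraries, 17.6, 6.31 and 10.0 CPM in the 3 caput/corpus libraries and 0.0710, 0.0677, 0.116 and 0.0439 CPM in the 4 cauda libraries. The cauda values stand for 7 reads in all, and no library of a region reached the range of another region. The mean was 230.1 ± 81.3 CPM in IS, 11.3 ± 5.75 CPM in caput/corpus and 0.0746 ± 0.0300 CPM in cauda libraries (SD, n = 4, 3 and 4). The log2 fold change of IS over caput/corpus was 4.23 ± 0.23 (SE, edgeR adjusted p = 6.42e-05), that of IS over cauda 11.62 ± 0.33 (adjusted p = 7.9e-08) and that of caput/corpus over cauda 7.39 ± 0.33 (adjusted p = 4.5e-06). By mean RPKM (reads scaled to gene length and to library size, the scale for levels between genes) Rnase10 ranked 293 among all genes in the IS, at 138.9 RPKM.

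Rnase9 (ENSMUSG00000052382) had 0.0354, 0.601, 0.0540 and 0 CPM in IS, 28.3, 32.4 and 17.1 CPM in caput/corpus and 0, 0, 0.927 and 0 CPM in cauda libraries. All 3 caput/corpus libraries lay above all others, and 1 library of each other region, IS 2 and cauda 3, held most of that region's reads, with 16 each. The log2 fold change of IS over caput/corpus was -7.04 ± 1.72 (edgeR adjusted p = 0.0530), which missed the threshold, and that of caput/corpus over cauda was 7.00 ± 1.71 (adjusted p = 0.122). The IS and caput/corpus difference passed it without IS 2 (log2 fold change -9.75, adjusted p = 0.0316), without cauda 1 (-7.18, adjusted p = 0.00676) or without cauda 3 (-7.88, adjusted p = 0.0203). In the other fits that left out 1 library its adjusted p ran up to 0.366. The caput/corpus and cauda difference passed the threshold without cauda 1 (adjusted p = 0.0474) or without cauda 3 (adjusted p = 0.0368), and elsewhere its adjusted p ran up to 0.472. Between IS and cauda the log2 fold change was -0.04 ± 2.20 (adjusted p = 0.994), an error too wide to place one region above the other.

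Other genes of the family were read in the same cells. Of 16 listed, the ribonuclease inhibitor gene among them, 7 were tested. Ear2 and Rnase6, ribonucleases of leukocytes, were lower in the IS than in caput/corpus. EdgeR called no other tested gene of the list there (5 of 7 at an unadjusted p under 0.05, and 4 by DESeq2). Of all genes 0.794% were called as higher and 2.98% as lower in the IS in that comparison. Ear2 averaged 21.5 ± 10.1 CPM in IS and 108.6 ± 37.5 CPM in caput/corpus libraries (SD, n = 4 and 3, adjusted p = 0.00653). Rnase6 averaged 128.9 ± 35.8 CPM in IS and 239.6 ± 35.4 CPM in caput/corpus libraries (adjusted p = 0.00943). Between IS and cauda, 3 were called as higher in the IS and 3 as lower, and the 4 with the smallest adjusted p were Rnase6, Ear2 and the inhibitor gene Rnh1, all lower in the IS, and Rnase4, which was higher at 480.7 ± 162 CPM in IS against 109.0 ± 33.8 CPM in cauda libraries (log2 fold change 2.04 ± 0.30, adjusted p = 0.00144). Of all genes 7.40% were called as higher and 9.06% as lower in the IS than in the cauda. Between caput/corpus and cauda 0 of 7 were called by edgeR (5 at an unadjusted p under 0.05, and 2 by DESeq2), while 0.615% of all genes were. Over the 7 tested genes the median log2 fold change was -0.47, 0.004 and 1.07 for IS over caput/corpus, IS over cauda and caput/corpus over cauda. With Rnase13 left out, which had 0 reads in both IS and cauda libraries, the IS over cauda median was 0.62.

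Ovch2, Adam28 and Adam7 encode a secreted serine protease and a pair of ADAM proteins. ADAM28 is a metalloprotease also known from lymphocytes, and ADAM7 lacks the usual catalytic site and passes from the epididymis onto sperm. The Ovch2 window (GRCm38.p6, chr7:107801180-107801429, minus strand) is shown because OVCH2 is the known product of NELL2 and ROS1 signalling, and PEA3-type ETS factor genes are targets of ERK signalling in the initial segment; capitals are as above.
Ovch2: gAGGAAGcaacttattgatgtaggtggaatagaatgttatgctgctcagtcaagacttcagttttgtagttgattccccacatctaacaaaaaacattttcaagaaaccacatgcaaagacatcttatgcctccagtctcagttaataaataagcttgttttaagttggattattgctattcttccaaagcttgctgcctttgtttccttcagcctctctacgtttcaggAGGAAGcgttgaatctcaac
AGGAAG occurred in it at 2 places, the nearer beginning 20 bases before the start.

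Ovch2 (ENSMUSG00000048236) had 41.5, 50.5, 30.7 and 23.0 CPM in IS, 1.72, 1.21 and 0.825 CPM in caput/corpus and 0, 0, 0 and 0.0439 CPM in cauda libraries, the last being 1 read. Each region was separate from the others. For IS over caput/corpus the log2 fold change was 4.75 ± 0.47 (edgeR adjusted p = 0.00151). Against the single cauda read, the ratio of pooled read shares was 3664 for the IS (95% counting interval 657 to 144800, edgeR adjusted p = 8.67e-06) and 127 for caput/corpus (22.2 to 5063, adjusted p = 0.0014). The caput/corpus and cauda call was lost with those regions fitted alone (adjusted p = 0.304), within Maj3 (0.584) or Maj4 (0.0752) and by limma on log2(RPKM + 1), with a filter (0.12) or without (0.177).

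Adam28 (ENSMUSG00000014725) had 56.1, 73.5, 45.7 and 40.0 CPM in IS, 2.12, 0 and 0.970 CPM in caput/corpus and 0.0355, 0.0677, 0 and 0.439 CPM in cauda libraries. The IS libraries lay above all others, while caput/corpus and cauda overlapped at 0. The log2 fold change was 8.53 ± 1.13 for IS over cauda (edgeR adjusted p = 0.000736) and 5.70 ± 1.07 for IS over caput/corpus (adjusted p = 0.0167). The IS and caput/corpus call was lost without IS 1 (adjusted p = 0.0575), IS 2 (0.0517), IS 3 (0.0639) or caput/corpus 3 (0.0812), with log2 fold changes of 5.13 to 6.81 over all libraries left out in turn. For caput/corpus over cauda the log2 fold change was 2.83 ± 1.10 (adjusted p = 0.337).

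Adam7 (ENSMUSG00000022056) had 87.1, 179, 112 and 101 CPM in IS, 48.3, 41.4 and 43.2 CPM in caput/corpus and 0, 3.59, 0.695 and 2.86 CPM in cauda libraries. The 3 regions were separate, with means of 119.7 ± 40.5 CPM in IS, 44.3 ± 3.54 CPM in caput/corpus and 1.79 ± 1.71 CPM in cauda libraries. IS over cauda gave a log2 fold change of 6.04 ± 0.82 (edgeR adjusted p = 0.000885). That of caput/corpus over cauda was 4.64 ± 0.80 (adjusted p = 0.0336), a call lost in 9 of the 11 fits that left out 1 library, with an adjusted p of 0.0667 without IS 1, 0.0673 without IS 2, 0.0787 without IS 3, 0.0813 without IS 4, 0.191 without caput/corpus 1, 0.0688 without caput/corpus 2, 0.0868 without caput/corpus 3, 0.0781 without cauda 3 and 0.0889 without cauda 4. Over the 11 fits the log2 fold change was 4.203 to 5.299. With caput/corpus and cauda fitted alone the adjusted p was 0.357. For IS over caput/corpus the log2 fold change was 1.40 ± 0.73 (adjusted p = 0.435), and 1.36 (adjusted p = 0.0284) without cauda 1. In the other fits that left out 1 library that adjusted p ran up to 0.746.

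Of 14 other ADAM genes listed, 11 were tested. Adam8, a leukocyte ADAM, was lower in the IS at 27.6 ± 6.21 CPM against 101.9 ± 12.1 CPM in caput/corpus libraries (log2 fold change -1.92 ± 0.20, edgeR adjusted p = 0.00213) and 184.9 ± 41.1 CPM in cauda libraries (-2.72 ± 0.20, adjusted p = 4.23e-05). EdgeR called no other ADAM of the list between IS and caput/corpus (6 of 11 at an unadjusted p under 0.05, and 4 by DESeq2). Of all genes 0.794% were called as higher and 2.98% as lower in the IS there. Compared with the cauda, 4 were higher in the IS, led by Adam17, the sheddase of TNF, at 215.4 ± 22.6 CPM in IS and 151.8 ± 21.6 CPM in cauda libraries (adjusted p = 0.00679), and by Adamdec1, a macrophage ADAM with 697 reads in the IS and 0 in the cauda, at least 235-fold higher in the IS against 3 reads over the cauda libraries (adjusted p = 0.00938). The share of all genes called as higher in the IS than in the cauda was 7.40%, and as lower 9.06%. Between caput/corpus and cauda edgeR called 0 of 11 (3 at an unadjusted p under 0.05, and 2 by DESeq2), against 0.615% of all genes. The list's median log2 fold change was 0.42, 0.38 and -0.07 for IS over caput/corpus, IS over cauda and caput/corpus over cauda.

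Crisp1 and Crisp4 are cysteine-rich secretory proteins, made under androgen control in the rodent epididymis, that coat sperm. The Crisp4 window (GRCm38.p6, chr1:18145903-18146152, minus strand) is shown because it was the window in this set that held both motifs at a first listed start.
Crisp4: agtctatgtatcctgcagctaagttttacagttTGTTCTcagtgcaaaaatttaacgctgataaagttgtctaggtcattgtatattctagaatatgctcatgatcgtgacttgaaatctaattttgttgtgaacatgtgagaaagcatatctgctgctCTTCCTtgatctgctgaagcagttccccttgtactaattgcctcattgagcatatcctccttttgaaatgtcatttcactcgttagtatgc
TGTTCT began 217 bases and CTTCCT 91 bases before the start, whereas neither motif was found in the Crisp1 or Ros1 windows.

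Crisp1 (ENSMUSG00000025431) was the member with the flattest profile. It had 42.8, 46.6, 34.1 and 21.2 CPM in IS, 113.5, 31.3 and 84.4 CPM in caput/corpus and 13.1, 27.8, 35.1 and 25.5 CPM in cauda libraries. All 3 regions overlapped, and each cauda library held 370 to 822 reads of it. IS over caput/corpus gave a log2 fold change of -1.12 ± 0.43 (edgeR adjusted p = 0.237), IS over cauda 0.45 ± 0.41 (adjusted p = 0.526) and caput/corpus over cauda 1.56 ± 0.43 (adjusted p = 0.178). Crisp3, its close paralogue in mice, had 1 read in all 11 libraries. Reads that aligned to more than 1 place were kept apart from the genes in the deposited counts. They made up 12.5% to 28.5% of all reads in the 10 count files that equalled a column. The count file that equalled no column had 35.8%, and the column named cauda 1 has no count file to give its share. How many of the reads kept apart came from Crisp1 or Crisp3 was not tested.

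Crisp4 (ENSMUSG00000025774) had 9.80, 16.8, 6.21 and 3.41 CPM in IS, 2.99, 0 and 0 CPM in caput/corpus and 0 CPM in all 4 cauda libraries. The IS libraries lay above all others, and caput/corpus 1 was the one library outside the IS with reads. IS over cauda was at least 309.7-fold, against 3 reads over the cauda libraries (edgeR adjusted p = 0.00828). For IS over caput/corpus the log2 fold change was 4.50 ± 1.49 (adjusted p = 0.192), and without caput/corpus 1 it was 9.87 (adjusted p = 0.0339), a fitted value against 0 reads. In the other fits that left out 1 library that adjusted p ran up to 0.487. Caput/corpus over cauda gave an adjusted p of 0.224.

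Clu (ENSMUSG00000022037) had 23.2, 522, 64.9 and 68.9 CPM in IS, 115.6, 135.6 and 182 CPM in caput/corpus and 0.0710, 10.7, 3.19 and 5.58 CPM in cauda libraries. IS 2 stood far above the other IS libraries, and the caput/corpus range fell inside the IS range. The log2 fold change was 4.91 ± 1.17 for IS over cauda (edgeR adjusted p = 0.0174), and 3.23 (adjusted p = 0.0547) without IS 2. It was -0.20 ± 1.14 for IS over caput/corpus (adjusted p = 0.978) and 5.11 ± 1.21 for caput/corpus over cauda (adjusted p = 0.108), although those groups were separate. The caput/corpus and cauda difference passed without cauda 1 (4.75, adjusted p = 0.0498). In the other fits that left out 1 library its adjusted p ran up to 0.29.

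Ros1 (ENSMUSG00000019893) was low wherever it was read. It had 3.15, 1.35, 1.89 and 2.98 CPM in IS, 0.401, 3.11 and 0.679 CPM in caput/corpus and 0 CPM in all 4 cauda libraries. IS and caput/corpus overlapped. IS over cauda was at least 77.3-fold, against 3 reads over the cauda libraries (edgeR adjusted p = 0.00398, but 0.0621 by limma on log2(RPKM + 1)). Caput/corpus over cauda was at least 42.3-fold (edgeR adjusted p = 0.0624). With each library left out in turn, the latter adjusted p ran from 0.0410, without cauda 1, up to 0.175. The log2 fold change of IS over caput/corpus was 1.08 ± 0.98 (adjusted p = 0.755). Counts of 0 limit the reads in these libraries, not the expression of the gene in the tissue, and 3 reads in 1 library were worth 0.102 to 0.174 CPM.

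**Figure D2:**
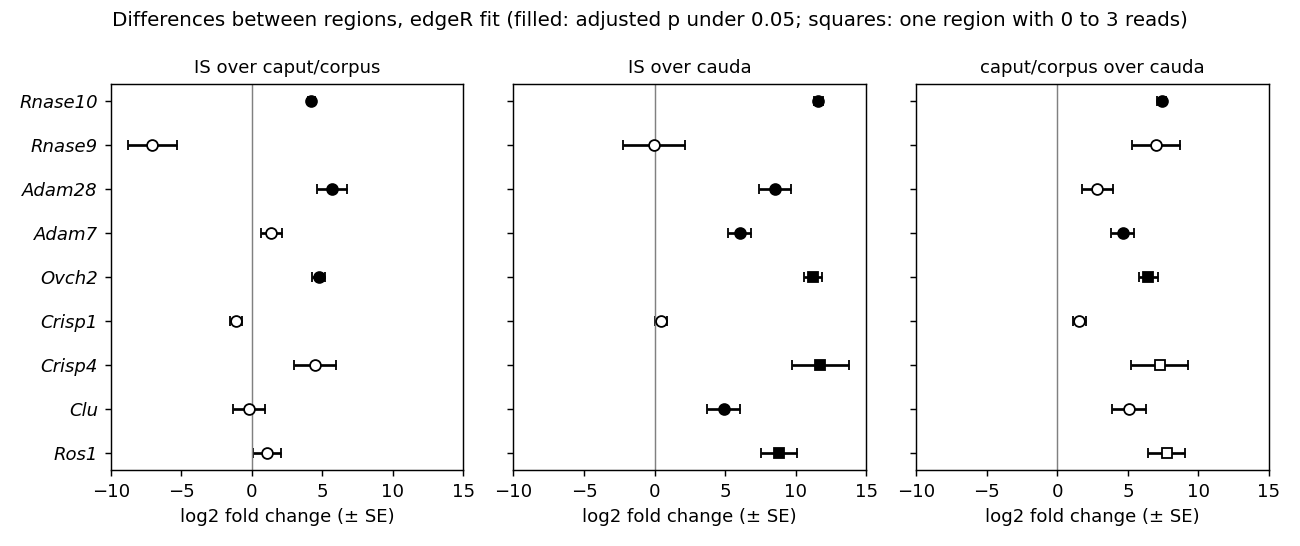
Log2 fold changes of the 9 genes (± SE, edgeR) for IS over caput/corpus, IS over cauda and caput/corpus over cauda; filled symbols passed an adjusted p of 0.05, and squares mark fitted values where a region had 0 to 3 reads, which depend on the fit's prior and are no estimate of size. Rnase9 is the gene far below 0 for IS over caput/corpus, at -7.04.

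Genes around ROS1 were listed beside it: its ligand gene Nell2, the phosphatase gene Ptpn6, which restrains ROS1 in mouse epididymis, and targets of the ERK pathway downstream. Nell2 had 0 reads in IS and cauda and 3 in caput/corpus libraries. Of 11 listed genes found in the table, 10 were tested, and 4 were called as higher in the IS than in the cauda, 0 as lower. The shares over all genes were 7.40% and 9.06%. Dusp6, a phosphatase of ERK, averaged 551.9 ± 90.0 CPM in IS and 302.1 ± 52.0 CPM in cauda libraries (SD, n = 4 each, log2 fold change 0.86 ± 0.17, edgeR adjusted p = 0.00769). The PEA3-type factor gene Etv5 averaged 113.9 ± 13.3 CPM in IS and 61.3 ± 20.0 CPM in cauda libraries (adjusted p = 0.0119). Etv4 had 320 reads in IS and 2 in cauda libraries, a ratio of 162 (95% counting interval 44.5 to 1343, adjusted p = 0.0132). Etv1 passed at an adjusted p of 0.0499, a call lost in 10 of the 11 fits that left out 1 library, all but that without caput/corpus 3 (adjusted p up to 0.124). Between IS and caput/corpus, and between caput/corpus and cauda, edgeR called 0 of the 10 (in each, 2 at an unadjusted p under 0.05, and 1 by DESeq2). The shares over all genes were 3.78% and 0.615%. The list's median log2 fold change was 0.62, 1.15 and 0.52 for IS over caput/corpus, IS over cauda and caput/corpus over cauda.

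Ordered by mean RPKM within the IS, the 9 genes ran Rnase10 (138.9 RPKM), Clu (49.3), Adam7 (28.2), Crisp1 (25.8), Ovch2 (18.9) and Adam28 (14.8), and each of these overlapped its neighbour over the 4 libraries. Crisp4 (2.77) lay below Adam28 with no overlap, and Ros1 (0.289) below Crisp4 with none. Rnase9 (0.0949) came last and overlapped Ros1. In caput/corpus the order began with Crisp1 (54.2) and Clu (41.5), which overlapped each other. Rnase9 (14.1), Adam7 (10.4) and Rnase10 (6.80) followed as an overlapping group, and then Ovch2 (0.644), Crisp4 (0.305), Adam28 (0.282) and Ros1 (0.171). In the cauda Crisp1 (18.02) stood alone above Clu (1.41) and Adam7 (0.420), and the other 6 averaged 0.126 RPKM or less.

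Set against Rnase10 in the same library, Ovch2 was nearly constant in the IS. It stood at 13.4 to 14.6 RPKM per 100 RPKM of Rnase10 over the 4 IS libraries, against 7.05 to 16.5 in caput/corpus. Crisp1 stood at 17.1 to 20.5 in IS and 586 to 992 in caput/corpus libraries, and Adam28 at 9.56 to 13.4 in IS and 0 to 5.47 in caput/corpus libraries. Adam7 stood at 12.7 to 29.0 in IS and 107 to 256 in caput/corpus libraries, and Rnase9 at 0 to 0.169 in IS and 146 to 466 in caput/corpus libraries. Among the genes with reads in all 4 IS libraries Clu ranged widest, at 4.17 to 77.8, a span of 18.7-fold, and stood at 315 to 1030 in caput/corpus libraries. Crisp4 stood at 1.27 to 2.64 in IS libraries. The genes read in both regions did not keep one fixed proportion to each other between regions. Cauda libraries, with 1 or 2 reads of Rnase10 each, allow no such ratio.

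**Figure D3:**
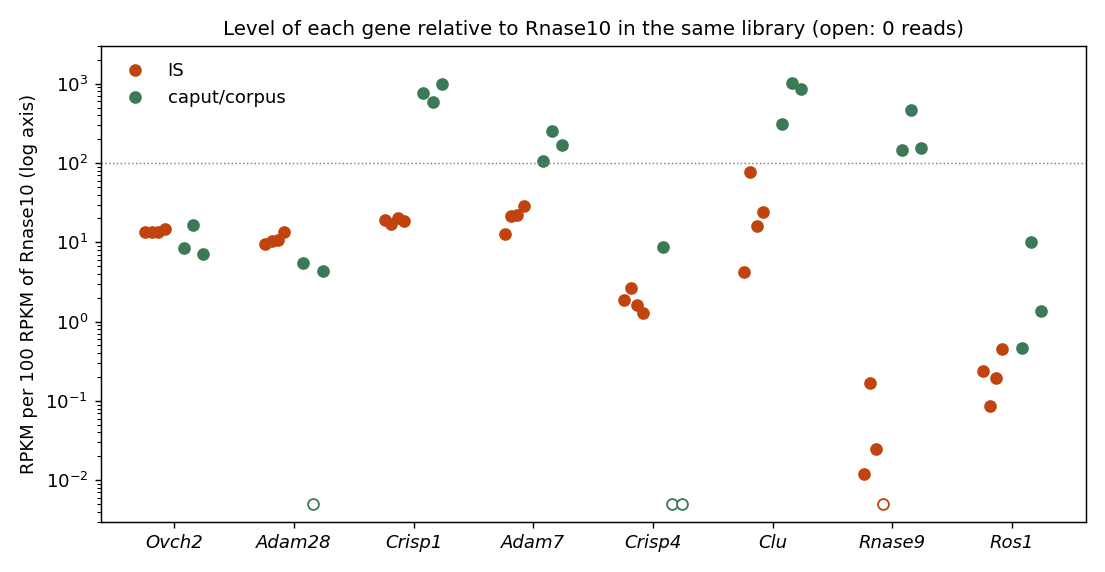
RPKM of each gene per 100 RPKM of Rnase10 in the same library (log axis), with IS left of caput/corpus for each gene; the dotted line marks the level of Rnase10 itself and open symbols 0 reads. Ovch2 spans 13.4 to 14.6 in the IS, and Crisp1, Adam7, Clu and Rnase9 lie above 100 in all 3 caput/corpus libraries and below it in all 4 IS libraries.

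Likeness of pattern was measured as the root-mean-square distance between log2(CPM + 1) profiles over the 11 libraries, each centred on its own mean, so a smaller distance is a closer pattern. Among the 9 genes, Adam28 and Ovch2 were the closest pair at 0.484. Closest to Rnase10 were 9230104L09Rik (0.388), the cystatin gene Cst11 (0.455) and the lipocalin gene Lcn8 (0.541). Closest to Rnase9 were Spink11 (0.449), Aldh3a1 (0.669) and Gm6792 (0.680). Adam7 lay nearest to Defb42 (0.571), Slc40a1 (0.762) and Slco4a1 (0.786). Adam28 lay nearest to the smooth muscle actin gene Actg2 (0.339), 5830403L16Rik (0.516) and Cst12 (0.548), and Ovch2 to Ddit4l (0.420), 9230110F15Rik (0.483) and the lipocalin gene Lcn10 (0.518). Crisp4 lay nearest to Bpi (0.432), Tmem119 (0.448) and Slc1a1 (0.484). Clu lay nearest to Igfbp7 (0.758), the basal cell keratin gene Krt14 (0.968) and Kcnk1 (1.01). Crisp1 lay nearest to Cpt1c (0.321), Tgfb2 (0.372) and 2610019F03Rik (0.390), and Ros1 to Derl3 (0.350), 4930479D17Rik (0.375) and C6 (0.377), but profiles that vary little lie close to many genes.

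Other secretory genes of the epididymal epithelium differed between the same regions. Of 18 listed lipocalin, cystatin, defensin and related genes, 17 were tested. Against caput/corpus, 9 were higher and 4 lower in the IS, against the cauda 13 were higher and 2 lower in the IS, and 13 were higher and 0 lower in caput/corpus than in the cauda. The shares over all genes were 0.794% and 2.98%, 7.40% and 9.06%, and 0.582% and 0.0331% in the same order. The list's median log2 fold change was 2.07, 9.54 and 7.28 in these comparisons, with genes of few reads at their read ratio. Gpx5, the secreted glutathione peroxidase, averaged 795.8 ± 293 CPM in IS and 0.623 ± 0.286 CPM in cauda libraries (edgeR adjusted p = 2.2e-07). Lcn5 was lower in the IS than in caput/corpus, with 1.32 ± 0.50 CPM in IS and 66.6 ± 29.9 CPM in caput/corpus libraries (adjusted p = 0.00132). Summed over the 18 genes the level was 1352 to 2936 CPM in IS, 358 to 643 CPM in caput/corpus and 5.10 to 11.2 CPM in cauda libraries.

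Markers of other cells were read in the same libraries. The 17 epithelial markers summed to 96.9 to 491 CPM in IS, 99.8 to 265 CPM in caput/corpus and 22.2 to 50.9 CPM in cauda libraries. None of them was at 0 over a whole region, but cauda 1 had reads on only 3 of the 17. In the cauda the highest means of the list were those of Spint2 (20.6 CPM) and Aqp9 (10.2 CPM). The list's median log2 fold change was 0.27 for IS over caput/corpus, 4.23 for IS over cauda and 3.68 for caput/corpus over cauda. EdgeR called 0 of 16 tested between IS and caput/corpus (1 at an unadjusted p under 0.05, and 0 by DESeq2), against 3.78% of all genes. It called 7 of 16 as higher in the IS than in the cauda, against 7.40% of all genes. Between caput/corpus and cauda it called 0 of 16 (10 at an unadjusted p under 0.05, and 10 by DESeq2), against 0.615% of all genes. IS 2 had the highest sum of epithelial markers (491 CPM, against 96.9 to 115 CPM in the other IS libraries) and of markers of smooth muscle, fibroblasts and endothelium (539 CPM, against 163 to 246 CPM in the other IS libraries), and it also had the highest value among IS libraries of 8 of the 9 genes and the lowest of Ros1. The 10 phagocyte markers summed to 10350 to 12200 CPM in IS, 7631 to 10580 CPM in caput/corpus and 6261 to 7669 CPM in cauda libraries. Of these 10, edgeR called 2 as higher and 0 as lower in the IS than in caput/corpus, against 0.794% and 2.98% of all genes. Compared with the cauda, 6 were called as higher and 1 as lower in the IS, against 7.40% and 9.06%. Between caput/corpus and cauda 0 were called (5 at an unadjusted p under 0.05, and 2 by DESeq2). The 13 sperm and germ cell markers summed to 1.99 to 3.63, 4.66 to 11.8 and 2.11 to 4.05 CPM in IS, caput/corpus and cauda libraries, and Acrv1 was at 0 in all. The 9 lymphocyte markers summed to 391 to 715, 535 to 818 and 524 to 1009 CPM in the same order. The 7 mast cell markers summed to 41.4 to 121 CPM in IS, 768 to 1123 CPM in caput/corpus and 1118 to 4130 CPM in cauda libraries, and all 7 were called as lower in the IS against each of the other regions. Of all genes 2.98% were called as lower in the IS than in caput/corpus and 9.06% as lower than in the cauda. The part of any of these cells in the reads of the 9 genes was not tested, and in such pooled RNA fewer cells of a type and less RNA per cell cannot be told apart.

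**Figure D4:**
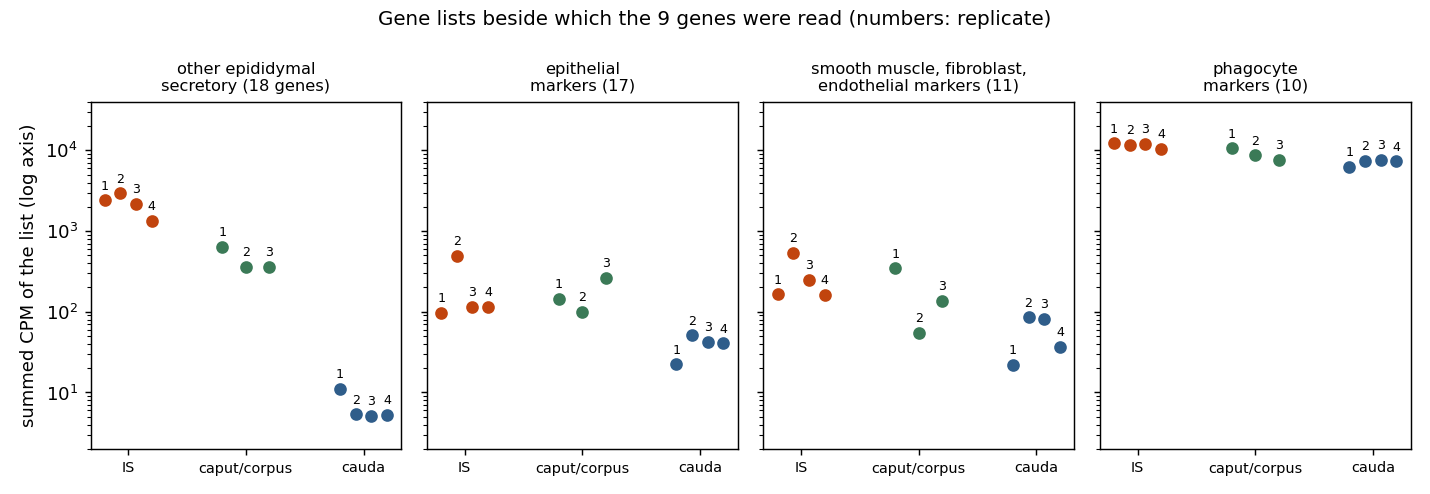
Summed CPM (log axis) of 4 gene lists in each library by region, with IS left, caput/corpus in the middle and cauda right, and the replicate number above each point. The 18 other secretory genes span 1352 to 2936 CPM in IS and 5.10 to 11.2 CPM in cauda libraries, a wider range than the epithelial and phagocyte markers, and IS 2 is the highest point of the epithelial list.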

How the data were processed

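Reads were aligned with STAR and counted per gene with HTSeq on mm9, and edgeR was used, per the submitters' processing notes; versions are not given in the sources used here. The authors deposited counts per gene for each library, made without regard to strand per the labels of the deposited files, and a table of RPKM values for the 11 libraries. The RPKM values multiplied by gene length, and divided in each library by the smallest such product above 0, taken as 1 read, gave whole reads (tolerance 0.001) for all 37583 genes. For 3 of 11 samples the deposited count file did not match the column named for that sample; the reads behind the columns were used, a choice made with earlier results known.

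Regions were compared with edgeR's quasi-likelihood test (edgeR 4.0.16, R 4.3.3) with TMM scaling, a filter on low counts (15116 genes kept), region and title series as terms and Benjamini-Hochberg adjustment over all genes tested. This count test was the main one because the RPKM columns held whole reads. SE is the fold change divided by the root of the F value. Where a region had 0 reads, the fold is a lower bound, set against a floor of 3 reads in the region as a whole, and with 1 to 3 reads the read ratio with an exact 95% interval, which cover counting error only. The 9 genes and all gene lists were chosen with earlier results of these data known. Named genes are the 9, at most 4 called genes per list and comparison with the smallest adjusted p, of which a part is printed, and the 3 nearest profiles to each of the 9. DESeq2 1.42.0 and limma 3.58.1 on log2(RPKM + 1) were alternatives. The fit was tested on simulated data.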

Additional observations from a re-analysis of the deposited data

Results flagged for a closer look

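Among the 9 genes, 16 region groups of 4 libraries were checked for a single library far from the others, and 5 stood out. Chance gives about 1 in 20 for continuous values only, and 4 of the 5 rest on 1 to 16 reads, so the number is not read as an excess. Where the other 3 libraries were at 0, any read meets the limit by construction. Clu in IS 2 was at 522 CPM, against 23.2 to 68.9 CPM in the other IS libraries. Rnase9 in IS 2 was at 0.601 CPM, against 0 to 0.0540 CPM in the others of that region, and Rnase9 in cauda 3 at 0.927 CPM, against 0. Adam28 in cauda 4 was at 0.439 CPM, against 0 to 0.0677 CPM, and Ovch2 in cauda 4 at 0.0439 CPM, which is 1 read, against 0.

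The count file deposited under IS 2 equalled no column of the expression table, so the main comparisons did not use it; it entered only the alternative with count files as filed. It held 30383072 reads on 17389 genes. Its reads were 474 on Rnase9, 349 on Rnase10, 958 on Adam7, 145 on Adam28, 2204 on Crisp1, 50 on Crisp4 and 1171 on Clu, with 2 on Ovch2 and 0 on Ros1.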

How the results depend on the processing

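Over 25 alternatives, the 27 fold changes of the 9 genes gave 671 values, of which 565 kept their direction and side of the threshold, 44 lost the call, 42 gained one and 20 changed direction, 0 of them among the 13 called. Counts below run IS and caput/corpus, IS and cauda, caput/corpus and cauda. Of all genes, 571, 2488 and 93 were called, and 3, 7 and 3 of the 9. DESeq2 called 1268, 3595 and 632, and 5, 7 and 7 of the 9. Without a filter 566, 2260 and 184 genes and 4, 7 and 6 of the 9 were called; without title series 233, 1481 and 83; on the regions compared alone 914, 1965 and 8, and 5, 7 and 1 of the 9. Maj3 libraries gave 0, 30 and 5, and 0, 2 and 1 of the 9, and Maj4 libraries 457, 1144 and 28, and 5, 7 and 3. By limma, log2(RPKM + 0.1) gave 490, 2626 and 159, and 5, 7 and 4 of the 9; log2(RPKM + 1) gave 793, 2947 and 116, and 6, 6 and 3 of the 9, with a filter, and 720, 2722 and 78, and 5, 7 and 3, without. Count files as filed gave 0, 4 and 0, and 0 of the 9 in each. Libraries with matching sources gave 954, 2409 and 52, and 5, 7 and 4 of the 9. With IS 2 and cauda 1 both left out, added after the data were seen, 1278, 2741 and 231 genes and 4, 7 and 5 of the 9 were called. Leaving out each library in turn gave 234 to 1353, 1641 to 3124 and 29 to 205 genes, and 2 to 5, 6 to 7 and 2 to 6 of the 9.

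Of 10 same-numbered pairs, 2 had deviations correlated over 0.1 (from -0.242 to 0.284), so the numbers were not used as pairs; whether such libraries share mice is not given in the labels. With the replicate block 398, 2362 and 41 genes were called, and Adam7 in caput/corpus over cauda had an adjusted p of 0.0524 and Clu there 0.0448.

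Direction changed in uncalled results. For IS over cauda, Rnase9 gave a log2 fold change of 0.012 with DESeq2's size factors, 0.34 with the replicate block, 6.20 in Maj3, 0.035 by limma on log2(RPKM + 0.1) and -2.43 to 5.23 with each library left out, and Crisp1 gave -0.12 in Maj4 and -0.14 with files as filed. For IS over caput/corpus, Clu gave 0.23 without title series, 0.028 with the replicate block, 1.22 in Maj3 and -1.52 to 0.17 with each library left out. The related gene Glipr1 was called as lower in the IS than in the cauda in the main fit. With files as filed its log2 fold change was 0.35, without a call. The cause was not tested. Depth limits the cauda values, since 3 reads were worth 0.102 to 0.174 CPM in 1 library.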

Other observations

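Other proteins with the CAP domain of the CRISP family, and receptors that bind clusterin, were read in the same cells. Of 10 listed CAP genes, 5 were tested. Glipr2 was lower in the IS, with 19.8 ± 2.98 CPM in IS and 59.1 ± 6.54 CPM in caput/corpus libraries (log2 fold change -1.56 ± 0.22, edgeR adjusted p = 0.0054) and 84.4 ± 23.1 CPM in cauda libraries (adjusted p = 0.000202). Glipr1 was lower in IS than in cauda libraries (-0.39 ± 0.10, adjusted p = 0.0248), and Crispld1 was higher (5.24 ± 1.52, adjusted p = 0.0412), with 164 reads in IS and 4 in cauda libraries. The Glipr1 call was lost without IS 2, 3 or 4 or cauda 3 or 4 (adjusted p up to 0.0788), and the Crispld1 call in 8 of the 11 fits that left out 1 library, all but those without IS 1, cauda 1 or cauda 4 (adjusted p up to 0.103). Between caput/corpus and cauda edgeR called 0 of 5 (2 at an unadjusted p under 0.05, and 1 by DESeq2), against 0.615% of all genes. Of all genes 2.98% were called as lower in the IS than in caput/corpus. Compared with the cauda, 7.40% of all genes were called as higher and 9.06% as lower in the IS. The list's median log2 fold change was -1.39, -0.39 and 0.42 for IS over caput/corpus, IS over cauda and caput/corpus over cauda.

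Of 4 listed clusterin receptors, 3 were tested. Trem2, a lipid and clusterin receptor of macrophages, averaged 330.9 ± 42.1 CPM in IS and 165.3 ± 24.7 CPM in cauda libraries (SD, n = 4 each, log2 fold change 1.02 ± 0.19, edgeR adjusted p = 0.00453). Of all genes 7.40% were called as higher in the IS than in the cauda. The other receptors were not called by edgeR in any comparison. EdgeR called 0 of 3 between IS and caput/corpus (1 at an unadjusted p under 0.05, and 1 by DESeq2), against 3.78% of all genes. It called 0 of 3 between caput/corpus and cauda (0 at an unadjusted p under 0.05, and 0 by DESeq2), against 0.615% of all genes.

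The difference between regions was also tested for a change between the title series Maj3 and Maj4. EdgeR called 0 of 15116 genes in each comparison (157, 410 and 358 at an unadjusted p under 0.05 for IS and caput/corpus, IS and cauda, and caput/corpus and cauda). Among the 9 genes the smallest unadjusted p were 0.00527 for Crisp4 between IS and caput/corpus and 0.0251 for Rnase9 between IS and cauda.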
